A study of Mus musculus with 6 samples.

Results

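This account covers 10 genes, 5 that are known from bone and 5 that are known from tendon, in the developing gastrocnemius, the large calf muscle of the hind limb. The bone genes were Ibsp, Spp1, Sp7, Dmp1 and Mmp13, and the tendon genes were Scx, Tnmd, Mkx, Thbs4 and Comp. They were found by gene symbol among the 23367 gene entries of the deposited table, all 10 were present, and all 10 passed the filter on low counts. They had been selected with their levels in these libraries known, so their own levels and differences are given as a description with no test.

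Polyadenylated RNA from wild-type FVB mice was sequenced at embryonic day 18.5 (E18.5), postnatal day 2 (PN2), PN14, PN28 and in adults of 22 weeks. The E18.5 library pooled RNA from several male and female mice and the PN2 library pooled several males, while PN14 replicate 1, PN14 replicate 2, PN28 and the adult were 1 male each. There were thus 6 libraries for 5 stages, and the PN14 pair was the only measure of the spread between animals. The column names put every library on a different sequencing lane, so stage, lane and pooling cannot be told apart.

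Bone forms when osteoblasts, directed by transcription factors such as Runx2 and Sp7, lay down collagen and secrete acidic phosphoproteins that bind mineral. Tendon fibroblasts depend on the transcription factors Scx and Mkx, and they make tenomodulin and a matrix that carries force from muscle to bone. A calf muscle lies against both tissues at its ends, with developing cartilage and marrow beside the bone around birth.

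A library held between 125402932 and 157868359 counts on genes. Levels are given in FPKM, fragments scaled by gene length and by the fragments counted in the library, which the authors scaled to each library alone. Differences between stages are given as log2 of the normalized read count after TMM scaling, which sets the scale from the bulk of the genes, in CPM with 0.1 added (the TMM CPM scale). On that scale the median difference of all genes tested from PN2 to PN14 was -0.02, whereas on the FPKM scale it was -0.55. The label of the tissue was met by its own markers: the summed FPKM of 10 muscle fibre genes was 30942 at E18.5, 31367 at PN2 and between 85485 and 114972 in the later libraries.

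All 5 bone genes were present at E18.5 and PN2 and lower from PN14 on, from 2.94-fold lower at PN14 than at PN2 for Dmp1 to 1 count or none for Ibsp. Their summed level was 121 FPKM at E18.5 and 80.3 FPKM at PN2, against 1.21 and 0.96 FPKM in PN14 replicates 1 and 2, 1.39 FPKM at PN28 and 3.07 FPKM in the adult. The 5 tendon genes summed to 234 FPKM at E18.5 and 281 FPKM at PN2, and then to 105 and 94.2 FPKM at PN14, 121 FPKM at PN28 and 78.5 FPKM in the adult. The tendon sum was thus 1.93 times the bone sum at E18.5 and 3.50 times at PN2, but between 25.6 and 98.2 times the bone sum in the 4 later libraries. In bulk tissue, fewer cells of a type and less RNA per cell cannot be told apart. Neither can be told apart from a change in how much neighbouring bone or tendon was taken along with the muscle. The sources used here do not say whether any was, and it was not tested.

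**Figure D1:**
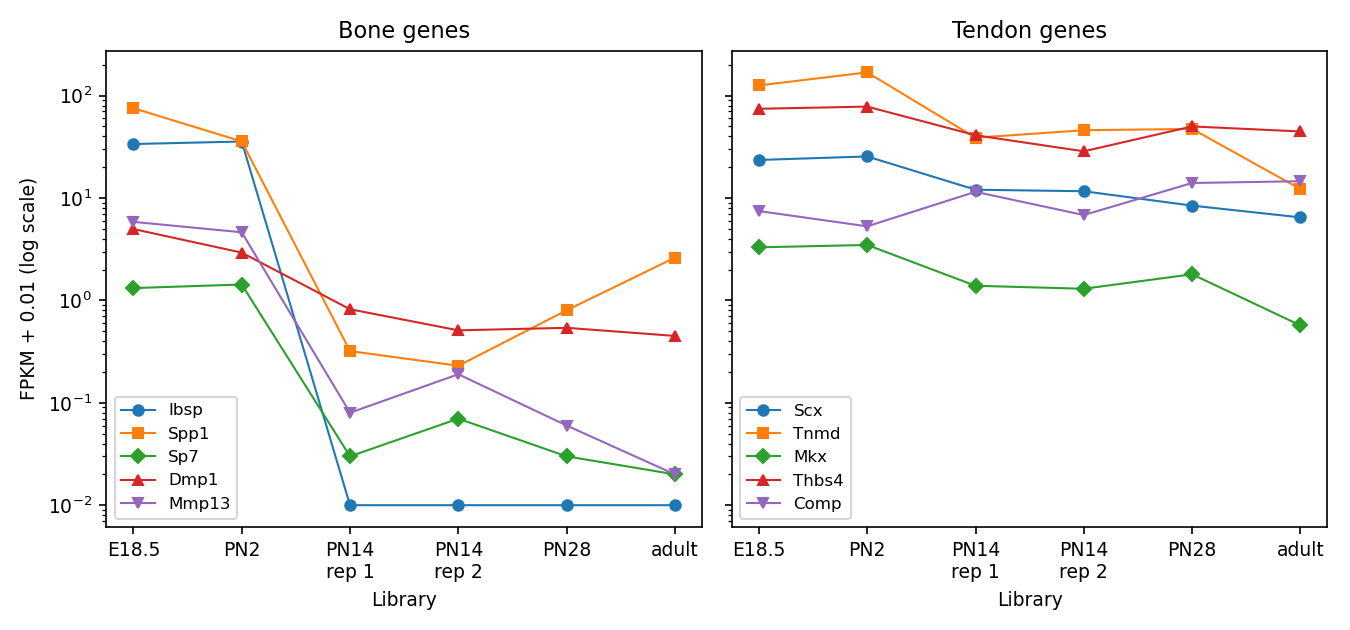
FPKM plus 0.01 on a log axis in each of the 6 libraries, for the bone genes (left) and the tendon genes (right), with 1 line per gene and 1 point per library. The bone genes drop between PN2 and PN14, Ibsp from 35.6 FPKM to 0 and Dmp1 from 2.92 FPKM to 0.81 and 0.50 FPKM. Each tendon gene stays at 0.56 FPKM or more in every library. Dmp1 in PN14 replicate 1 and Spp1 at PN28 (0.79 FPKM) and in the adult (2.61 FPKM) also lie above that level.

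Ibsp encodes bone sialoprotein, a mineral-binding matrix protein of osteoblasts. It stood at 33.7 FPKM (10118 counts) at E18.5 and 35.6 FPKM (10633 counts) at PN2, with 1 count in PN14 replicate 1 and 0 counts in PN14 replicate 2, PN28 and adult. It stood at percentiles 91.3 and 91.7 of all entries by FPKM in the perinatal libraries, and no later library held more than 1 count. The ratio of PN2 to PN14 was 12003.5 with an exact 95% interval of 2153.9 to 474155.4, which is wide because it rests on that 1 count. Against a floor of 3 counts per library, the level was at least 1815.2-fold lower at PN28 than at PN2 and at least 1586.3-fold lower in the adult. Such intervals and floors cover counting error only.

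Spp1 encodes osteopontin, a secreted phosphoprotein of bone that macrophages and other cells can also make. Its level was 75.4 FPKM at E18.5, 35.7 FPKM at PN2, 0.31 and 0.22 FPKM in the PN14 pair, 0.79 FPKM at PN28 and 2.61 FPKM in the adult. It was the only bone gene with a higher level in the adult than at PN14, with 54 and 45 counts in the PN14 pair, 162 counts at PN28 and 513 counts in the adult. On the TMM CPM scale it differed by -1.07 from E18.5 to PN2, by -6.11 from PN2 to PN14, by 1.60 from PN14 to PN28 and by 1.79 from PN28 to the adult, where the PN14 replicates differed from each other by 0.62 in size. The ratio of PN2 to PN14 was 87.9 (95% interval 72.1 to 108) and that of PN2 to the adult was 6.72 (6.15 to 7.37).

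Sp7 encodes osterix, the transcription factor that commits cells to the osteoblast fate. It was low throughout, at 1.31 FPKM (463 counts) at E18.5 and 1.42 FPKM (496 counts) at PN2, then 7 and 21 counts in the PN14 libraries, 5 at PN28 and 3 in the adult. The ratio of PN2 to PN14 was 20.0 (13.7 to 30.4). Both perinatal libraries lay above every later library.

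Mmp13 encodes collagenase-3, which late cartilage cells and osteoblasts use to remodel matrix. It was measured at 5.84 FPKM at E18.5, 4.62 FPKM at PN2, 0.07 and 0.18 FPKM at PN14, 0.05 FPKM at PN28 and 0.01 FPKM in the adult. The ratio of PN2 to PN14 was 23.3 (18.9 to 29.1), and PN14 replicate 2 held more of it than replicate 1, as it did of Sp7. In the adult, with 3 counts, the ratio to PN2 was 284 (96.9 to 1376).

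Dmp1 encodes dentin matrix acidic phosphoprotein, a protein of osteocytes, the cells embedded in bone. A low level of it remained at every later stage, with 4.97 FPKM at E18.5, 2.92 FPKM at PN2, 0.81 and 0.50 FPKM at PN14, 0.53 FPKM at PN28 and 0.44 FPKM in the adult. The counts behind these values were 2126, 1241, 274, 203, 214 and 172. Its ratio of PN2 to PN14 was 2.94 (2.64 to 3.27), smaller than that of the other bone genes, and on the TMM CPM scale PN28 (1.84) and the adult (1.69) lay between the PN14 replicates (2.60 and 1.34). The step of -0.75 from E18.5 to PN2 was also smaller in size than the 0.90 between the PN14 replicates.

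Dmp1, Ibsp and Spp1 are neighbours on chromosome 5 of the mm9 build, all on the plus strand, in a row of genes for secreted acidic phosphoproteins of bone and teeth. From the start of Dmp1 to the end of Spp1 is 238 kb. Dmp1 lies at 104631632 to 104643121, Ibsp at 104728190 to 104740488 and Spp1 at 104864137 to 104870069, with Mepe, a phosphoglycoprotein gene of osteocytes, between the last pair. Mmp13 lies on chromosome 9 at 7272514 to 7283333 and Sp7 on chromosome 15 at 102187040 to 102197285. Mepe had 136 counts at E18.5, 34 at PN2, 0 in both PN14 libraries, 1 at PN28 and 0 in the adult, at least 12.8-fold lower at PN14 than at PN2 against a floor of 3 counts per library. Dspp, the tooth gene before Dmp1, had at most 3 counts in any library.

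The genes just outside that row were not called lower from PN2 to PN14. Sparcl1, a matrix protein gene on the Dspp side, was between 72.0 and 185 FPKM in all 6 libraries, and it missed the threshold of edgeR's quasi-likelihood test (log2 fold change 0.91, SE 0.312, Benjamini-Hochberg adjusted p = 0.0722). Pkd2, a cation channel gene on the Spp1 side, also missed the threshold in edgeR's quasi-likelihood test (-0.59, SE 0.188, adjusted p = 0.0604). Nudt9, a hydrolase gene further out, rose (1.35, SE 0.210, adjusted p = 0.00968, same edgeR test). These neighbours were looked at for their position, after the values of the bone genes were seen.

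**Figure D2:**
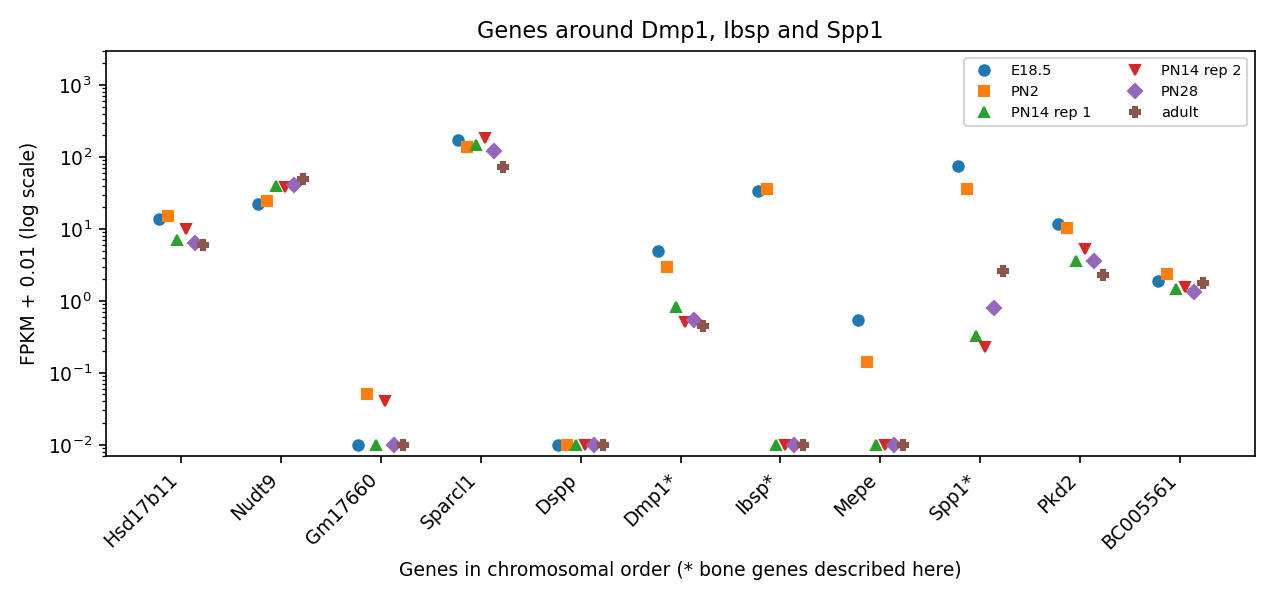
FPKM plus 0.01 on a log axis for the annotated genes around Dmp1, Ibsp and Spp1 in chromosomal order, with 1 point per library and the described bone genes starred. Dmp1, Ibsp, Mepe and Spp1 are highest at E18.5 or PN2, Dspp is near 0 throughout, and Sparcl1 holds between 72.0 and 185 FPKM.

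The 250 bases before the annotated start of the bone genes of chromosome 5 and of Mmp13 are shown because these genes were high together and low together. Sp7, on the minus strand, was high and low with them too. Its sequence is not shown, but it is counted below. Runx2 and related factors are known to bind TGTGGT, which reads ACCACA on the other strand, and each occurrence of either form is in capitals. The sequences are from mm9 with GENCODE M1 starts, on the plus strand, 5′ to 3′.

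Dmp1 (chr5:104631382-104631631): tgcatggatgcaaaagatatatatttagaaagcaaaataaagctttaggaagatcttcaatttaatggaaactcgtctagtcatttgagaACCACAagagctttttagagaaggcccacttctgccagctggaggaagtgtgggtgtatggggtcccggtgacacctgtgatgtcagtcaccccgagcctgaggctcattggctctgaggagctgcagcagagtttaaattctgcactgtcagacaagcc
Ibsp (chr5:104727940-104728189): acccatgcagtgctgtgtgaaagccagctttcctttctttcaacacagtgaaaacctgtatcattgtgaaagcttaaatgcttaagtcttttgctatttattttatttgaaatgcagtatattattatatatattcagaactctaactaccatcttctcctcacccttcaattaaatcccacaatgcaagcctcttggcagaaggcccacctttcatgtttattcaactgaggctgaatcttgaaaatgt
Spp1 (chr5:104863887-104864136): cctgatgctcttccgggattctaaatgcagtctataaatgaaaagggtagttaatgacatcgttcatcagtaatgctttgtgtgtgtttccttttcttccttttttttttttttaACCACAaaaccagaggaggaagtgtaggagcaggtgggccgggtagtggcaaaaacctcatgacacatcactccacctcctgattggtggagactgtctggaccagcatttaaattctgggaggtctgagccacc
Mmp13 (chr9:7272264-7272513): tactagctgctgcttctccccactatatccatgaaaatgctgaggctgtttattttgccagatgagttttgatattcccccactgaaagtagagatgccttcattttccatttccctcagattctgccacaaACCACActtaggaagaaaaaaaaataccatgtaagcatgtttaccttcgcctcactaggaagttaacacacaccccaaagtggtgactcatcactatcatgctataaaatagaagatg

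The motif occurred in the form ACCACA once in Dmp1, from base -160 to -155 counted from the start, once in Spp1, from -135 to -130, and once in Mmp13, from -118 to -113. Ibsp and Sp7 had no match, and neither did the tendon genes Scx, Tnmd, Thbs4 and Comp. Mkx was not searched. That made 3 of 9 genes with a match, where 2803 of 21858 annotated starts (12.8%) had at least 1 in the same window. A match of 6 bases is a description of the sequence and not evidence of binding.

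The tendon genes were present in every library, and their differences around PN14 were smaller and not all in the same direction. Scx encodes scleraxis, the transcription factor that marks tendon cells from early development. It stood at 23.5 FPKM at E18.5, 25.5 FPKM at PN2, 12.0 and 11.6 FPKM at PN14, 8.42 FPKM at PN28 and 6.46 FPKM in the adult. The perinatal libraries were above all later ones, but the size of the difference depended on the scale, at -0.44 from PN2 to PN14 on the TMM CPM scale and -1.10 on the FPKM scale. E18.5 and PN2 differed by 0.11, less than the 0.31 between the PN14 replicates. Scx lies on chromosome 15 at 76287868 to 76289898, inside the span of Bop1 on the other strand. Neither of its 2 exons overlaps a Bop1 exon, and Bop1 was between 11.8 and 17.4 FPKM in all libraries. Of the other tendon genes, Tnmd lies on chromosome X at 130385519 to 130400116, Thbs4 on chromosome 13 at 93521545 to 93564773 and Comp on chromosome 8 at 72897447 to 72905964, in mm9.

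Tnmd encodes tenomodulin, a membrane protein of mature tendon cells, and it was the highest of the 10 genes at E18.5 and PN2. Its levels were 126 FPKM at E18.5, 169 FPKM at PN2, 38.8 and 45.9 FPKM at PN14, 47.3 FPKM at PN28 and 12.2 FPKM in the adult. It was thus lower at PN14 than at PN2 on both scales (-1.34 on the TMM CPM scale, -2.00 on the FPKM scale), and lower again in the adult than at PN28 (-1.81 and -1.94). The PN14 replicates were only 0.02 apart on the TMM CPM scale. The ratio of PN2 to the adult was 6.78 (6.49 to 7.08), close in size to the 6.72 of Spp1 between the same libraries, though Spp1 was lowest at PN14 and Tnmd in the adult.

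Mkx encodes the homeobox factor mohawk, which maintains tendon cells. It was the lowest of the tendon genes, with 3.29 FPKM at E18.5, 3.47 FPKM at PN2, 1.38 and 1.29 FPKM at PN14, 1.79 FPKM at PN28 and 0.56 FPKM in the adult. On the TMM CPM scale PN28 (7.18) lay between E18.5 (7.15) and PN2 (7.53), so the perinatal and later libraries overlapped. The step from PN28 to the adult was -1.49, larger than the 0.35 between the PN14 replicates.

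Thbs4 encodes thrombospondin-4, a matrix protein of tendon and of the junction between muscle and tendon. It was at 74.4 FPKM at E18.5, 78.1 FPKM at PN2, 41.0 and 28.6 FPKM at PN14, 50.01 FPKM at PN28 and 44.7 FPKM in the adult. Its direction over the whole course flipped with the scale: from E18.5 to the adult it differed by 0.29 on the TMM CPM scale and by -0.73 on the FPKM scale. From PN2 to PN14 it differed by -0.53 and -1.19, and the PN14 replicates themselves were 0.78 apart.

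Comp encodes cartilage oligomeric matrix protein, a thrombospondin of tendon and cartilage. It ran the other way, with 7.45 FPKM at E18.5, 5.28 FPKM at PN2, 11.5 and 6.81 FPKM at PN14, 14.01 FPKM at PN28 and 14.6 FPKM in the adult. The lower PN14 library lay below E18.5 on the FPKM scale, so the perinatal and later groups overlapped there. The difference from PN2 to the adult was 2.48 on the TMM CPM scale and 1.45 on the FPKM scale, and the PN14 replicates were 1.01 apart on the former.

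Over both classes, E18.5 and PN2 were each above all 4 later libraries for 5 of 5 bone genes and 4 of 5 tendon genes on the FPKM scale, where the same held for 61.1% of all genes tested. On the TMM CPM scale it held for 5 of 5 bone genes and 2 of 5 tendon genes (Scx and Tnmd), against 34.8% of all genes. A higher level before PN14 than after it was therefore common among all genes. From PN2 to PN14 the median difference was -4.34 for the bone genes, -0.53 for the tendon genes and -0.02 for all genes tested on the TMM CPM scale, and -4.44, -1.19 and -0.55 on the FPKM scale. From E18.5 to the adult the medians were -4.03, -0.83 and -0.05 on the TMM CPM scale, and -4.80, -1.85 and -0.82 on the FPKM scale. The genes were selected on these values, so nothing is tested by the contrast.

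**Figure D3:**
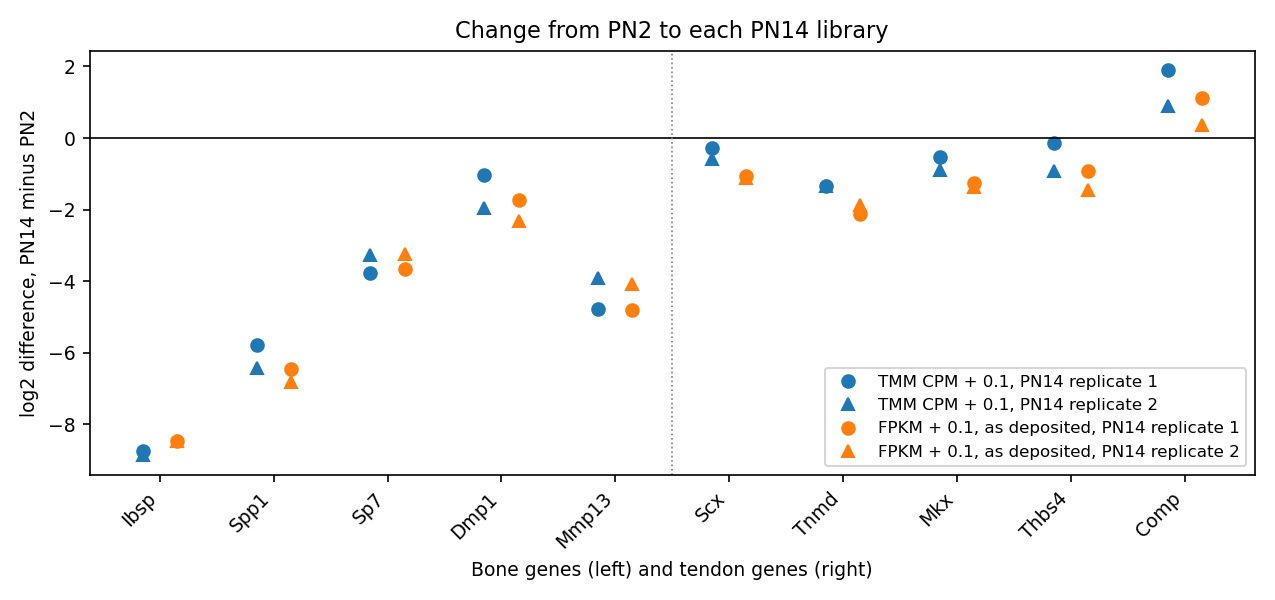
log2 difference from PN2 to each PN14 library for every gene, on the TMM CPM scale (blue) and on the FPKM scale (orange), with circles for PN14 replicate 1 and triangles for replicate 2. Both replicates put Ibsp, Spp1, Sp7 and Mmp13 below -3, Dmp1 between -1.04 and -2.33, and Comp above 0 on either scale.

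Genes outside the 10 were then used to ask how far the contrast between the classes extended, with edgeR's quasi-likelihood test across all 16882 genes tested. Calls needed a log2 fold change of 1 or more in size together with a Benjamini-Hochberg adjusted p under 0.05. From PN2 to PN14, 11.2% of all genes were called lower and 11.8% were called higher, and from E18.5 to the adult 23.6% and 21.4%.

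Of 17 further osteoblast genes, 14 fell from PN2 to PN14, 1 rose and 2 were not called, with a median log2 fold change of -3.03 (-2.68 with genes at or under 3 counts set to their bound), against -0.01 for all genes tested. From E18.5 to the adult 13 fell and none rose, with a median of -3.73. Several of these genes passed the filter on low counts through their perinatal level, such as Panx3, a channel gene with 423 counts at PN2 and 0 in both PN14 libraries, so the counts and medians describe the list and are no support for it. With a filter at a mean of 1 CPM, 7 of the 17 were tested, 4 fell in each comparison, and the medians were -1.27 and -1.50. The 3 with the highest FPKM were Pth1r, Bglap and Bglap2. Pth1r, the receptor for parathyroid hormone, was at 11.6 FPKM at E18.5, 9.96 FPKM at PN2, 1.39 and 2.17 FPKM at PN14, 1.32 FPKM at PN28 and 0.59 FPKM in the adult (PN2 to PN14 -1.85, SE 0.244, adjusted p = 0.00687, edgeR's quasi-likelihood test).

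Bglap and Bglap2 encode osteocalcin, a hormone-like protein made late by osteoblasts, and their near-identical copies make the split of reads between them uncertain. Bglap had 496 counts at E18.5, 253 counts at PN2, 6 and 8 counts in the PN14 pair, 2 at PN28 and 0 in the adult, and Bglap2 had 378, 185, 2 and 10, 2 and 0. Both were called lower from PN2 to PN14 in edgeR's quasi-likelihood test (-4.33, SE 0.445, adjusted p = 0.00474 for Bglap, and -4.13, SE 0.603, adjusted p = 0.00838 for Bglap2). Both passed the filter on low counts through their perinatal level, so these values describe the genes and are no support for the list. In the adult they were at least 73.4-fold and 56.0-fold lower than at E18.5.

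The exceptions in the osteoblast list, picked out after their values were seen, were Alpl, Runx2 and Col24a1. Alpl, alkaline phosphatase, is also made outside bone, and it rose from 2.67 FPKM at PN2 to 5.56 and 3.40 FPKM at PN14 by edgeR's quasi-likelihood test (1.44, SE 0.423, adjusted p = 0.0483), a call that was lost with library size alone, with DESeq2's size factors and with a filter at a mean of 1 CPM. Runx2, the first factor of the osteoblast path, had 393 counts at PN2 and 99 and 83 at PN14 (-1.23, SE 0.417, adjusted p = 0.0705, edgeR). Col24a1, a fibrillar collagen gene of bone, was between 1.38 and 4.69 FPKM in all libraries (-0.49, SE 0.215, adjusted p = 0.132, edgeR).

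Of 18 further tendon genes, 6 fell from PN2 to PN14, 3 rose and 9 were not called, with a median log2 fold change of -0.41. From E18.5 to the adult 8 fell and 6 rose, with a median of -0.35, but with library size alone 10 fell and 3 rose, with a median of -1.37. The highest was Postn, periostin, a matrix protein that other fibroblasts and bone also make, at 1004 FPKM at E18.5, 815 FPKM at PN2, 45.8 and 94.4 FPKM at PN14, 36.9 FPKM at PN28 and 3.44 FPKM in the adult. Its fall from PN2 to PN14 was -2.91 (SE 0.441, adjusted p = 0.00907, edgeR's quasi-likelihood test). Aspn, asporin, a small proteoglycan, fell from 124 FPKM at PN2 to 17.1 and 27.4 FPKM at PN14 (-1.84, SE 0.233, adjusted p = 0.00638, edgeR). Mustn1, a small nuclear protein of muscle and skeleton, had 117 FPKM at PN2 and 40.9 and 38.0 FPKM at PN14, and passed on p but not on size (-0.90, SE 0.212, adjusted p = 0.0267, edgeR).

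The other tendon list genes that fell were Tnc, Col12a1, Col14a1 and Lox, which encode tenascin-C, collagens XII and XIV and lysyl oxidase, the enzyme that crosslinks collagen. Those that rose from PN2 to PN14 were Chad, Cilp2 and Angptl7, named after their values were seen. Chad, chondroadherin, went from 1.76 FPKM at PN2 to 14.2 and 5.40 FPKM at PN14 and 21.2 FPKM in the adult (3.19, SE 0.717, adjusted p = 0.0237, edgeR's quasi-likelihood test for PN2 to PN14). Angptl7, an angiopoietin-like secreted protein, went from 1.84 FPKM to 15.6 and 4.53 FPKM, with 32.8 FPKM in the adult (3.18, SE 0.862, adjusted p = 0.0389, edgeR). From PN2 to PN14 the tendon list thus held calls in both directions, with 6 lower and 3 higher of 18 tested. Of all genes tested, 11.2% were called lower and 11.8% higher. Whether the 3 higher calls exceed that share was not tested. The tendon genes described first also differed in both directions, as a description with no test.

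Many listed genes of the tissues next to bone were lower at PN14 as well. Of 18 cartilage genes, 12 fell from PN2 to PN14 and none rose (median -1.93), and 16 fell from E18.5 to the adult (median -5.82, or -5.03 with bounds). Some, such as Matn1, passed the filter on low counts through their perinatal level. Matn1, named after its values were seen, had 911 counts at E18.5, 128 at PN2 and at most 2 later. The counts and medians thus describe the list and are no support for it. With a filter at a mean of 1 CPM, 14 were tested. Then 10 fell from PN2 to PN14 (median -2.17) and 13 from E18.5 to the adult (median -5.9). Col2a1, type II collagen, was at 60.2 FPKM at E18.5, 17.01 FPKM at PN2, 4.31 and 4.73 FPKM at PN14, 3.43 FPKM at PN28 and 0.17 FPKM in the adult (PN2 to PN14 -1.26, SE 0.172, adjusted p = 0.00730, edgeR's quasi-likelihood test). Col11a1, a minor collagen of cartilage, fell from 21.8 FPKM at PN2 to 4.04 FPKM in each PN14 library (-1.77, SE 0.190, adjusted p = 0.00513, edgeR), and Col11a2 had 19.3 FPKM at PN2 and 11.1 and 11.5 FPKM at PN14 (-0.11, SE 0.189, adjusted p = 0.692, edgeR). The cartilage sum differed from the bone sum in its timing, with 178 FPKM at E18.5 and 78.7 FPKM at PN2, then 23.9 and 26.2 FPKM, 22.7 FPKM and 5.14 FPKM.

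Of 10 osteoclast genes, which mark the cells that resorb bone, 6 fell from PN2 to PN14 and none rose (median -1.72), and 9 fell from E18.5 to the adult (median -2.94, or -2.63 with bounds). Where these counts are 0 for genes that rose, edgeR's exact test and DESeq2's Wald test called 0 as well, and at an unadjusted p under 0.05 edgeR's quasi-likelihood test gave 1 cartilage gene higher from PN2 to PN14 and 0 in the others. Some osteoclast genes also passed the filter through their perinatal level, such as Atp6v0d2, named after its values were seen. It had 261 counts at E18.5, 192 at PN2 and at most 9 later, so these counts describe the list only. With a filter at a mean of 1 CPM, 6 were tested. Then 4 fell from PN2 to PN14 (median -1.77) and 5 from E18.5 to the adult (median -2.31). Ctsk, cathepsin K, which fibroblasts can also make, was at 54.1 FPKM at both E18.5 and PN2 and at 11.0 and 11.5 FPKM at PN14 (-1.60, SE 0.172, adjusted p = 0.00513, edgeR's quasi-likelihood test). Acp5, tartrate-resistant acid phosphatase, fell from 14.9 to 2.43 and 2.67 FPKM (-1.85, SE 0.203, adjusted p = 0.00522, edgeR). Mmp9, a gelatinase that neutrophils share, fell from 8.16 to 0.42 and 0.70 FPKM (-3.23, SE 0.270, adjusted p = 0.00336, edgeR).

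Lists of the other cells the tissue could hold moved to different extents. Of the 10 marrow myeloid genes, which mark granulocytes and their precursors, 9 were tested and 8 fell from PN2 to PN14, with a summed level of 19.4 FPKM at E18.5, 32.3 FPKM at PN2 and between 0.28 and 1.57 FPKM later. Some of these myeloid genes, such as Camp, named after its values were seen, passed the filter through their perinatal level. Camp had 121 counts at E18.5, 130 at PN2 and at most 5 later. The 8 calls describe the list and are no support for it. Of 10 macrophage genes 1, Itgam, fell, and their sum was 156 and 132 FPKM before and between 74.3 and 100 FPKM after. None of 10 fibroblast genes was called from PN2 to PN14 by edgeR's quasi-likelihood test, where 3 were lower at an unadjusted p under 0.05. In that test 2 of the 10 passed on adjusted p but not on size. DESeq2's Wald test called 2 lower and edgeR's exact test called 1 lower. The summed FPKM of the fibroblast genes was 6468 at E18.5, 5371 at PN2 and between 616 and 2231 later. From E18.5 to the adult the quasi-likelihood test called 6 of these fibroblast genes lower and 0 higher (median -1.43). At an unadjusted p under 0.05 that test gave 1 higher. Of the 10 muscle fibre genes, 2 fell and 2 rose from PN2 to PN14, or 2 and 6 by DESeq2 and by edgeR's exact test. The share of these other cells in the lower levels of the bone and tendon genes was not tested.

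**Figure D4:**
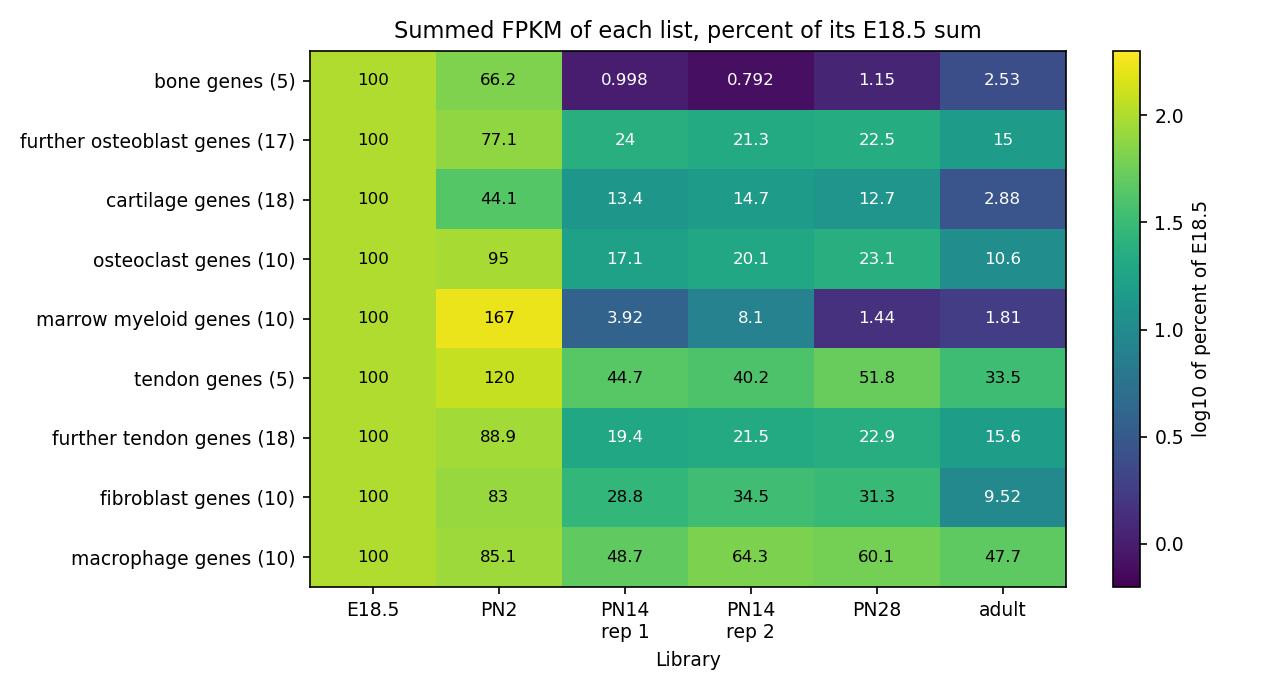
Summed FPKM of each list in each library, as a percent of its sum at E18.5, with the number of genes in brackets and a log colour scale. The 5 bone genes and the marrow myeloid genes are below 10 percent of E18.5 in every library from PN14 on, and the 5 tendon genes at 33.5 percent or more, but the further osteoblast genes (15 to 24 percent) and the further tendon genes (15.6 to 22.9 percent) have like sums. Postn alone holds 1004 of the 1670 FPKM of the further tendon genes at E18.5.

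The contrast between bone and tendon was not seen in the sums of the further lists, which a few high genes decide. The further osteoblast genes summed to 43.7 FPKM at E18.5, 33.7 FPKM at PN2, 10.5 and 9.33 FPKM at PN14, 9.84 FPKM at PN28 and 6.57 FPKM in the adult, and the further tendon genes to 1670, 1484, 325, 360, 383 and 260 FPKM. In the osteoblast list the high genes were Alpl, Pth1r and Col24a1, the 3 at 1 FPKM or more in each PN14 library. In the tendon list Postn alone held 1004 of the 1670 FPKM at E18.5, with 45.8 and 94.4 FPKM left at PN14. The like course of the 2 sums is therefore not a statement about most genes of either list. By number of genes the lists differed. In the adult, 6 of the 17 further osteoblast genes had 0 counts and 2 reached 1 FPKM, whereas none of the 18 further tendon genes had 0 counts and 17 reached 1 FPKM. At E18.5 all 17 osteoblast genes had counts and 8 reached 1 FPKM, whereas all 18 tendon genes reached it. The lists thus already differed in level at E18.5, and the adult difference by number was not tested against that. The share of all genes at 0 counts or at 1 FPKM was not computed.

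The genes with profiles nearest to Ibsp and to Tnmd were sought among 12848 genes with at least 1 FPKM in some library, by the root mean square difference between centred log2(FPKM + 0.1) profiles over the 6 libraries. Those nearest to Ibsp were Rtl1 (0.785), Tmem72 (0.912), 6430411K18Rik (1.10), BC100530 (1.11) and Peg10 (1.14). Rtl1 was at 55.1 and 62.1 FPKM in the perinatal libraries and at most 0.53 FPKM after. None of the 5 was on the osteoblast list, and the nearest of the other bone genes, Spp1, lay at 1.51. No gene of that list was above 11.6 FPKM in any library, against 35.6 FPKM for Ibsp at PN2, and the added 0.1 narrows the fall of low genes. The absence of osteoblast genes among the 5 thus depends on their level as well as on their course.

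Those nearest to Tnmd were Scube2 (0.193), Spock3 (0.203), Armcx4 (0.211), AI414108 (0.221) and Lrrn2 (0.231). Mkx was the nearest of the other tendon genes at 0.431, followed by Scx at 0.606, while Comp lay at 1.70. The bone genes Dmp1 at 0.699 and Sp7 at 0.859 were nearer to Tnmd than Thbs4 was at 0.974, and Mmp13 at 1.41 was nearer than Comp, so the classes overlapped on this measure. The added 0.1 narrows the differences of low genes, and Sp7 reached only 1.42 FPKM. Its ratio of PN2 to the adult was 13.8 on this scale, against 74.0 (25.2 to 360) from the TMM-scaled counts. The nearness of Sp7 to Tnmd therefore depends on that 0.1. The points share their libraries and their scale, and no test was made.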

How the data were processed

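Levels were measured by RNA-seq of gastrocnemius in 6 libraries. The authors aligned reads to mm9 with TopHat2 2.0.5 and quantified genes with RSEM (per the labels), and deposited expected counts and FPKM for 23367 gene entries. The deposited expected counts were not normalized, were whole numbers and were used as such. The deposited FPKM values were scaled by the authors to gene length and library. Nothing in the sources used here says that counting used strand.

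The counts were analysed with edgeR 4.0.16 in R 4.3.3 (TMM, filterByExpr with stage as group, quasi-likelihood test), with all 6 libraries and 5 stages in a single fit. The PN14 pair supplied the only residual degree of freedom (1, with 4.86 prior degrees of freedom and a common BCV, the spread between animals as a fraction of the level, of 0.188), so the test takes the single libraries to vary like PN14. The p-values were adjusted over all 16882 genes tested with the Benjamini-Hochberg method. Ratios carry exact 95% intervals (conditional binomial), and 0 counts a floor of 3 counts per library, which is 0.0190 to 0.0239 CPM.

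The members and lists were chosen with earlier results of these data known. Named genes were all 10 members, the 3 genes of the osteoblast, tendon, cartilage and osteoclast lists with the highest FPKM in any library, and the 5 nearest profiles of Ibsp and Tnmd, other names being marked in the text. The alternatives were library size alone, DESeq2's size factors, DESeq2's Wald test (1.42.0), edgeR's exact test, no filter, a mean of at least 1 CPM, a pseudocount of 1, the FPKM scale and either PN14 library left out. Coordinates and the 250 bases before each start came from GENCODE M1 on mm9, and tables and figures from Python 3.11.15 with pandas 2.3.3 and matplotlib 3.10.9.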

Additional observations from a re-analysis of the deposited data

How the results depend on the processing

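The 6 other settings of the test were library size alone, DESeq2's size factors, DESeq2's Wald test, edgeR's exact test, no filter and a mean of at least 1 CPM. The count of all genes called lower moved by more than 1.5 times with library size alone, as given below. In the further osteoblast, further tendon, cartilage and osteoclast lists, the counts that fell stayed within 1.5 times those given. The other lists were not rated in this way. The exceptions were 3 counts under the filter at a mean of 1 CPM. There, 4 further osteoblast genes fell from PN2 to PN14 (median -1.27) and 4 from E18.5 to the adult (median -1.50), of 7 tested in each, and 5 osteoclast genes fell from E18.5 to the adult, of 6 tested. That filter removes genes that are low in most libraries, and so removes list genes before any test. With library size alone, the calls over all genes from PN2 to PN14 split into 854 higher and 4971 lower (85.3% lower), against 1988 and 1896 (48.8% lower) with TMM, and from E18.5 to the adult into 1347 and 7700 (85.1% lower), against 3606 and 3978 (52.5% lower). With library size alone the median of all genes shifted to -0.66 and -1.08, 9 further tendon genes fell from PN2 to PN14 in place of 6, and 3 rose from E18.5 to the adult in place of 6, Fmod, Ecm2 and Cilp2 losing their call. With the filter at a mean of 1 CPM, and also with DESeq2's Wald test, Angptl7 lost its call from PN2 to PN14. In the same settings Prg4 lost its call as higher from E18.5 to the adult.

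Leaving out a PN14 library leaves no residual degrees of freedom, so no test could be fitted. Without a test, 15 of 17 further osteoblast genes were at least 2-fold lower at PN14 than at PN2 (14 to 15 with either PN14 library left out, an alternative chosen after seeing the data), 6 of 18 tendon genes (6 to 7), 12 of 18 cartilage genes (11 to 13) and 7 of 10 osteoclast genes (6 to 7). The 200 recomputed differences of the 10 genes over the 4 consecutive intervals reversed no difference larger than the spread of the PN14 pair and 0.1, and 33 moved by more than the PN14 pair's SD, 11 with library size alone, 10 on the FPKM scale, 11 with a pseudocount of 1 and 1 with DESeq2's size factors. No paired analysis was possible because PN14 alone had replicates. The precision is limited by 1 library at the other stages and, for Ibsp, Sp7 and Mmp13 after PN2, by counts between 0 and 70.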
